A study of Mus musculus with 6 samples.

Results

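The genes described are 7 matrix metalloproteinases (Mmp2, Mmp9, Mmp14, Mmp15, Mmp16, Mmp17 and Mmp24) and 3 tissue inhibitors of metalloproteinases (Timp2, Timp3 and Timp4). They were chosen by name, and all 10 symbols were found, each on 1 of the 33000 rows of the count table. RNA was sequenced with TruSeq, the Illumina protocol that covers mRNA along its full length, from frontal cortex of C57BL/6 mice aged 3 months. The wild-type (WT) group held 3 mice, and the GFAP-IL6 group held 3 mice homozygous for a transgene that places the inflammatory cytokine IL6 under the promoter of Gfap, an astrocyte gene. The groups share strain, age and tissue, and no treatment is named. The transgene has been present since conception under an astrocyte promoter, so early and lasting effects of IL6 cannot be told apart. The comparison of GFAP-IL6 with WT mice served in the study as the reference list of differentially expressed genes for its 3’Pool-seq protocol.

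MMPs are zinc-dependent proteinases that cut proteins of the extracellular matrix and of the cell surface. They are made as inactive precursors, are activated by removal of a propeptide, and are held in check by TIMPs, which bind the active site. In brain they are known for opening the basement membrane of vessels during inflammation and for remodelling the matrix around synapses. MMP14, one of the membrane-type MMPs (MT-MMPs) that act at the cell surface, forms a complex with TIMP2 that captures the precursor of MMP2 and leads to its activation, so that TIMP2 is both an inhibitor and a partner in activation.

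None of the 10 genes changed between GFAP-IL6 and WT cortex at an adjusted p under 0.05 (quasi-likelihood test of edgeR, adjusted by Benjamini-Hochberg over all genes tested). The background for this count is 2.86% of the 15341 genes tested with edgeR, and 1.38% when an absolute log2 fold change over 1 is also asked for, the pair of thresholds used in the study. All 10 genes passed the filter on low counts. The gene with the largest difference was Mmp14, with a mean 1.59-fold that of WT and an adjusted p of 0.111 by edgeR. Only Mmp14 had an unadjusted p under 0.05, against 20.5% of all genes tested. DESeq2 and limma-voom also called 0 of the 10 genes. The 10 log2 fold changes ran from -0.33 for Mmp9 to 0.67 for Mmp14, with 5 above 0 and 5 below. Their median was -0.0056, beside -0.0038 over all genes tested. In 6 of the 10 genes the 95% interval of the log2 fold change lay within 0.5 of 0 on both sides, as it did in 58.7% of all genes tested. Whether the libraries of the groups overlapped depended on the scale. In CPM they did not overlap for 1 of the 10, Mmp15, against 26.5% of all genes tested, and in TPM, both scales being defined below, for 2 of the 10, Mmp14 and Mmp16, against 26.2%. As these are bulk samples, fewer cells of a type and less RNA per cell cannot be told apart.

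**Figure D1:**
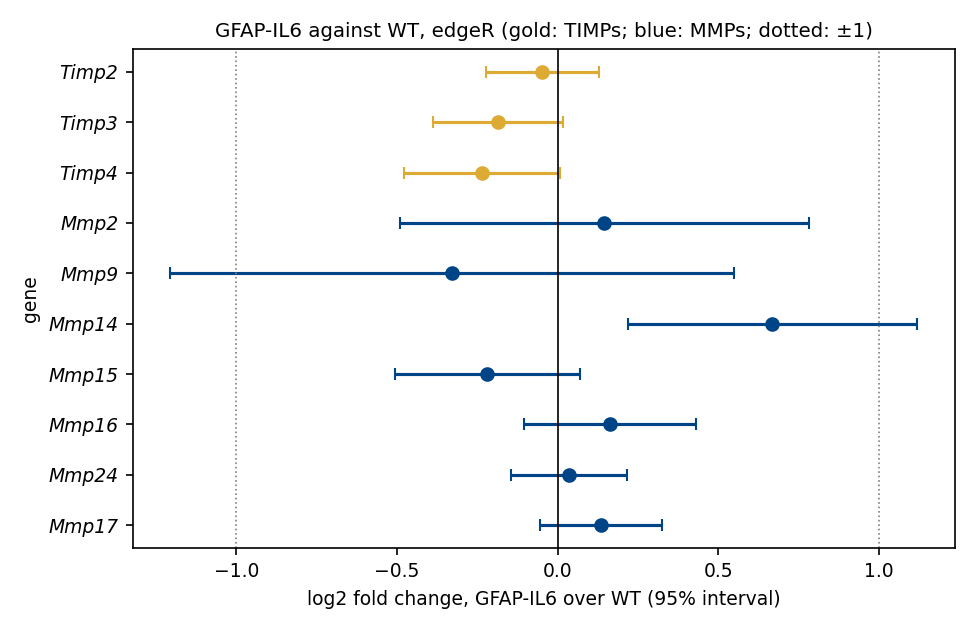
Log2 fold change of each gene in GFAP-IL6 over WT (x axis), with points for the edgeR estimate and bars for its 95% interval, 3 libraries per group. Of the 10 intervals, that of Mmp14 alone excludes 0, and those of Mmp2 and Mmp9 are the widest.

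The labels and the dissections were checked first. Il6 had 0, 2 and 0 counts in WT replicates 1, 2 and 3 and 12, 10 and 24 in GFAP-IL6, and Gfap had a log2 fold change of 2.84 ± 0.20 (SE), at an edgeR adjusted p of 5.5e-06. Total counts were between 11591066 and 16877001 in WT and between 7559524 and 11072008 in GFAP-IL6 (p of 0.1 by a two-sided exact permutation test, which cannot go lower with 3 mice a group). All 10 neuronal markers passed the filter in the cortex libraries. Among the libraries, 1 of WT stood apart in markers of choroid plexus and another in markers of striatum. Choroid plexus markers summed to 620.4 CPM (counts scaled to the library total) in WT replicate 3 and to at most 61.9 in any other library. Striatal markers summed to 513 CPM in WT replicate 2 and to between 266 and 339 in the others. Of 10 microglial markers 9 rose, as did 5 of 10 endothelial, 1 of 8 pericyte and smooth muscle and 1 of 9 astrocyte markers. None of 10 oligodendrocyte, 10 neuronal and 8 fibroblast markers passed the test. All 10 oligodendrocyte markers nonetheless had log2 fold changes below 0 (median -0.27), as did 8 of the 10 neuronal ones (median -0.13). Of the neuronal markers 5 had an unadjusted edgeR p under 0.05, against 20.5% of all genes tested.

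The order of levels was set by TPM, a transcript abundance that divides counts by gene length and by the library's sum of such values and so allows one gene to be compared with another. Timp2 stood highest at 175 ± 10.7 TPM (SD, n = 6 for each gene here, both groups together), followed by Mmp17 at 97.7 ± 10.9 and Timp3 at 61.3 ± 4.89. With the gene lengths deposited beside the counts, each of these 3 genes lay above the next in all libraries. Mmp24 at 46.8 ± 3.15 TPM and Timp4 at 46.4 ± 4.81 TPM overlapped, and both lay above Mmp16 in every library. Mmp16 at 14.1 ± 1.97 TPM, Mmp15 at 9.26 ± 1.08 TPM and Mmp14 at 9.01 ± 3.12 TPM formed a middle tier in which neighbours overlapped. Within this tier Mmp15 lay above Mmp14 in every WT library (means of 9.73 and 6.73 TPM). In GFAP-IL6 the means were in the opposite order (8.79 and 11.3 TPM). This turn depends on the deposited gene lengths, 4348 bases for Mmp15 and 2596 for Mmp14. In CPM, which uses no length, the mean of Mmp15 was higher in both groups (15.2 against 6.32 in WT, 13.1 against 10.05 in GFAP-IL6). Merged exons in GENCODE M21 differ from the deposited lengths, with 5397 bases for Mmp15, 5960 for Mmp14 and 5894 in place of 1416 for Timp4. They also give 8144 in place of 4722 for Timp3, 8667 in place of 5011 for Mmp16 and 4683 in place of 4306 for Mmp24. With the merged lengths Mmp14 is longer than Mmp15, so the mean of Mmp15 per base is higher in both groups and the turn is absent. Timp4 is then longer than Mmp24, and it had at most 27.1 CPM against at least 66.4 for Mmp24. Per base it would lie below Mmp24 in every library instead of overlapping. The other places in the order, that of Timp3 included, were not computed with those lengths. The gelatinases were the lowest, Mmp2 at 2.14 ± 0.577 TPM and Mmp9 at 1.08 ± 0.437 TPM, with overlapping ranges. Mmp17 and Mmp24 together made up 80.6 ± 0.901% of the summed TPM of the 7 MMPs in WT and 79.9 ± 1.54% for GFAP-IL6 (SD over 3 libraries).

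**Figure D2:**
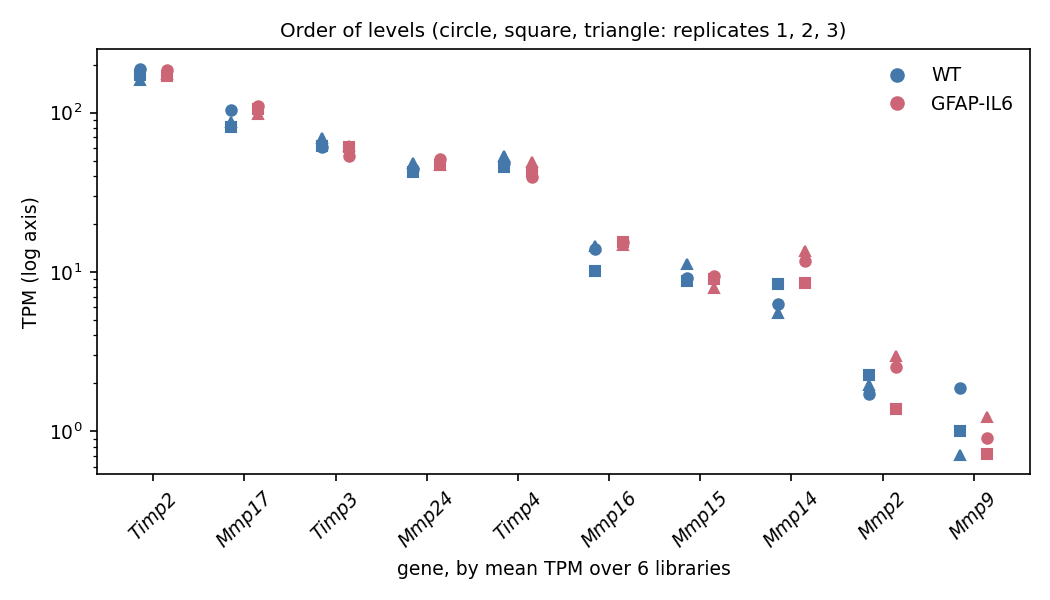
TPM of each gene on a log axis, with a point for each library and genes placed by their mean over 6 libraries. Levels span from about 175 TPM for Timp2 to 1.08 TPM for Mmp9, and the WT and GFAP-IL6 points of a gene lie close together relative to that span.

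None of the 3 inhibitors passed the test. Timp2 (ENSMUSG00000017466.7, chromosome 11, 118301069 to 118355740, minus strand; positions are from GENCODE M21 on GRCm38) had 246, 236 and 213 CPM in WT replicates 1, 2 and 3 and 232, 218 and 222 in GFAP-IL6. These CPM values are likewise TMM-scaled, and all GFAP-IL6 libraries fell inside the WT range. The means were 231 ± 17.0 and 224 ± 7.29 CPM (SD, n = 3 each), with a log2 fold change of -0.05 ± 0.08 (SE), a 95% interval of -0.22 to 0.13 and an adjusted p of 0.774 by edgeR. That interval leaves room for a level between 0.856 and 1.09 times that of WT.

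Timp3 (ENSMUSG00000020044.11, chromosome 10, 86300372 to 86349506, plus strand) encodes the inhibitor that binds to the matrix and also blocks several ADAM and ADAMTS proteinases. It had 100.3, 108 and 117 CPM for WT, against 85.6, 99.97 and 101 for GFAP-IL6, with GFAP-IL6 replicate 1 lowest of all and the other 2 GFAP-IL6 libraries at the lower edge of WT. The fitted difference came to -0.19 ± 0.09 (SE) on the log2 scale with an interval of -0.39 to 0.02 (adjusted p of 0.281 by edgeR). The gene lies inside Syn3, a synapsin gene on the opposite strand, and shares 21.3% of its exon bases with it. Since a strand setting for counting is not given in the sources used here, reads of both genes cannot be fully told apart, although Syn3 itself was at 8.72 ± 2.96 CPM for WT and 11.7 ± 1.75 for GFAP-IL6 (SD over 3 libraries).

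Timp4 (ENSMUSG00000030317.6, chromosome 6, 115241892 to 115252205, minus strand) encodes the inhibitor with the most restricted tissue expression of the family. Its values were 23.9, 23.9 and 27.1 CPM for WT, against 19.1, 20.9 and 23.9 for GFAP-IL6, and the highest GFAP-IL6 library reached the lower WT libraries. In log2 units the difference was -0.24 ± 0.11 (SE) with an interval of -0.48 to 0.01 (adjusted p of 0.256 by edgeR). Timp4 lies inside another synapsin gene, Syn2, again on the opposite strand, but shares only 1.53% of its exon bases with other genes. Syn2 was more abundant than Timp4, at 500.1 ± 29.9 CPM for WT and 483 ± 23.1 for GFAP-IL6 (SD over 3 libraries). For both Timp3 and Timp4 the highest library was WT replicate 3, the one with the most choroid plexus transcripts. Without it the log2 fold changes were -0.13 for Timp3 and -0.17 for Timp4, and the part of choroid plexus in either gene was not tested. Without GFAP-IL6 replicate 1, the lowest library for both, they were -0.11 and -0.16.

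**Figure D3:**
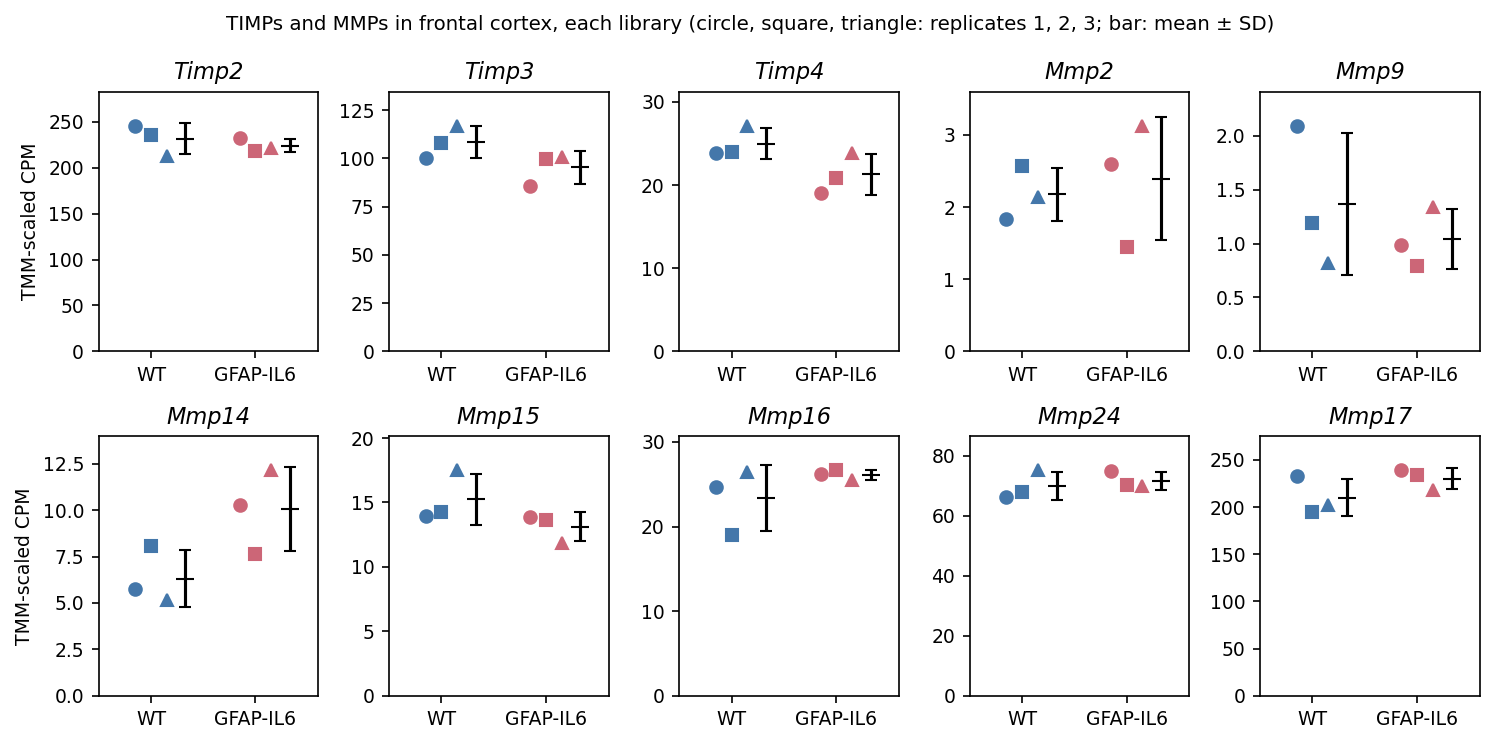
TMM-scaled CPM of each gene (y axis from 0) in each library, with bars for the mean ± SD of 3 libraries. GFAP-IL6 lies above most WT libraries for Mmp14, with WT replicate 2 above GFAP-IL6 replicate 2, and the groups overlap or nearly touch in the other panels.

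The secreted gelatinases were near the low end of what these libraries measure. Mmp2 (ENSMUSG00000031740.7, chromosome 8, 92827291 to 92853420, plus strand), the gelatinase that is made by many tissues without stimulation, had 21, 43 and 34 counts for WT, against 29, 11 and 28 for GFAP-IL6. On the CPM scale this came to 1.83, 2.56 and 2.13 for WT, against 2.60, 1.45 and 3.13 for GFAP-IL6, where the GFAP-IL6 libraries held both the lowest and the highest value. The estimated difference was 0.15 ± 0.29 (SE) on the log2 scale with an interval of -0.49 to 0.78 (adjusted p of 0.811 by edgeR), and without GFAP-IL6 replicate 3 it was -0.07.

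Mmp9 (ENSMUSG00000017737.2, chromosome 2, 164940780 to 164955850, plus strand), the gelatinase typically induced by inflammatory signals and carried by neutrophils, was the lowest of the 10. It had 24, 20 and 13 counts for WT, against 11, 6 and 12 for GFAP-IL6, which on the CPM scale was 2.09, 1.19 and 0.816 for WT, against 0.986, 0.792 and 1.34 for GFAP-IL6. WT replicate 1 was the highest library and the remaining libraries of both groups were mixed. The fitted difference came to -0.33 ± 0.40 (SE) on the log2 scale with an interval of -1.21 to 0.55 (adjusted p of 0.675 by edgeR), and without WT replicate 1 it was 0.06. That interval covers levels from 0.434 to 1.46 times WT. Neutrophil markers were near 0, with at most 4 counts for any of 8 genes in any library and 6 of the 8 at or under 3 counts throughout.

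Among the transmembrane MT-MMPs, Mmp14 (ENSMUSG00000000957.9, chromosome 14, 54431612 to 54445364, plus strand; MT1-MMP), the activator of the MMP2 precursor, had the largest difference. Its counts were 66, 135 and 82 for WT, against 115, 58 and 109 for GFAP-IL6. Scaled to CPM these were 5.75, 8.05 and 5.15 for WT, against 10.3, 7.66 and 12.2 for GFAP-IL6, so that GFAP-IL6 replicates 1 and 3 were above all WT libraries and GFAP-IL6 replicate 2 was just below WT replicate 2. The means were 6.32 ± 1.53 and 10.05 ± 2.27 CPM (SD, n = 3 each), with a log2 fold change of 0.67 ± 0.21 (SE) and an interval of 0.22 to 1.12. The unadjusted p was 0.00706 and the adjusted p was 0.111 by edgeR, which did not pass the threshold.

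The promoters of 2 MT-MMPs are shown, that of Mmp14 as the gene with the largest difference and that of Mmp24 as the gene with the smallest. RefSeq sequences of build GRCm38.p6, from 250 bases before to 50 bases after the gene start, were matched for 6 of the 10 genes, namely Timp2, Timp3, Timp4, Mmp14, Mmp15 and Mmp24. Each line gives the 70 bases before the start of the RefSeq entry on the plus strand, which for Mmp14 lies upstream of the GENCODE start given above, at chr14:54431528-54431597 and chr2:155775272-155775341, with the GC box GGGCGG in capitals on either strand.
Mmp14: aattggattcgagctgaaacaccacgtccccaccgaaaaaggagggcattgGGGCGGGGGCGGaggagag
Mmp24: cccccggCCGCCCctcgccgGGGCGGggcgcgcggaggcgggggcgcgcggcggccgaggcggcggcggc
Each stretch holds 2 GC boxes, which in Mmp14 follow each other directly. A GC box was found in 5 of the 6 full windows, all but that of Timp4, and in 35.7% of all 32851 promoters of this length. The STAT motif TTCNNNGAA, which reads the same on both strands and is the kind of element bound by STAT3 downstream of IL6, was in 0 of the 6 windows and in 8.30% of all promoters. A missing match says only that these letters are not in this window.

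Mmp14 passed the threshold in 2 of the 14 other settings. Without WT replicate 2 the log2 fold change was 0.90 (edgeR adjusted p of 0.0158), and without the filter on low counts the adjusted p was 0.0134 at a log2 fold change of 0.67. In the other 12 settings the adjusted p was between 0.0658 and 0.402, and the log2 fold change was above 0 in all 14. WT replicate 2 was the library with the highest summed level of striatal markers, which were present in all libraries. It also had the highest summed level of fibroblast markers among WT libraries, at 159 CPM against 133 and 127. In GFAP-IL6 replicates 1, 2 and 3 the fibroblast markers summed to 130.0, 125 and 184 CPM, highest in replicate 3, the library with the highest Mmp14. Without GFAP-IL6 replicate 3 the log2 fold change of Mmp14 was 0.52 (edgeR adjusted p of 0.402). The summed microglial markers were 439 to 537 CPM in WT and 939.9 to 1089 in GFAP-IL6, the endothelial markers 194 to 216 and 297 to 333, and the pericyte and smooth muscle markers 196 to 238 and 263 to 299.7. Their part in the level of Mmp14 was not tested.

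**Figure D4:**
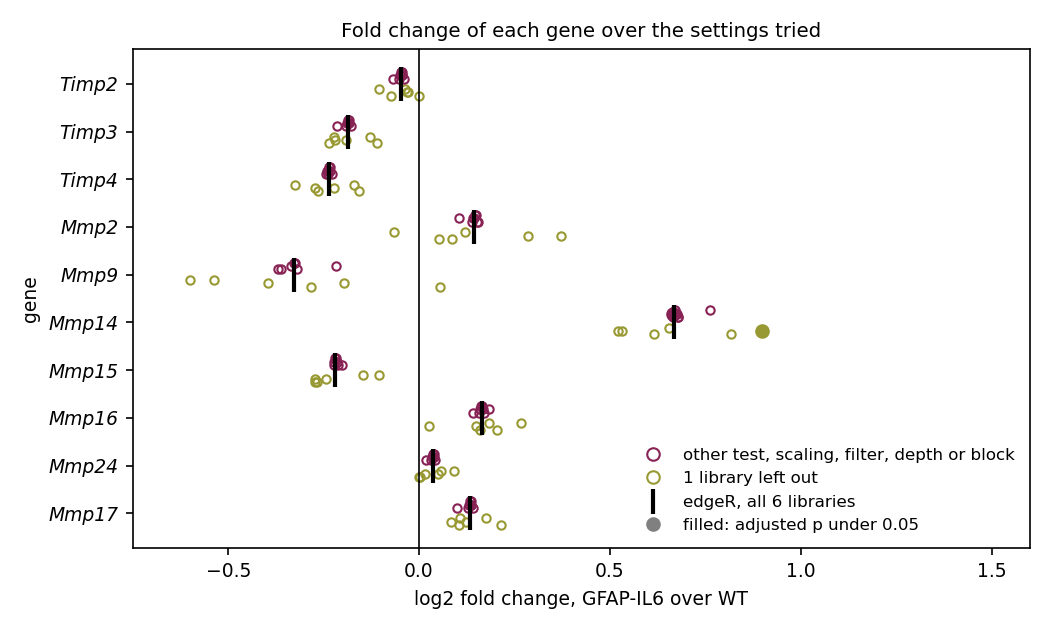
Log2 fold change in GFAP-IL6 over WT (x axis) of each gene with all 6 libraries (black bar), with 1 library left out (olive) and under the other settings (purple), where filled points have an adjusted p under 0.05. Filled points appear for Mmp14 alone, 1 without WT replicate 2 and 1 without the low-count filter, and points of Mmp2 and Mmp9 fall on both sides of 0.

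Mmp15 (ENSMUSG00000031790.7, chromosome 8, 95352268 to 95375080, plus strand; MT2-MMP), a close relative of MMP14, was the 1 gene of the 10 whose groups did not overlap in CPM, while in TPM they overlapped. It had 13.9, 14.3 and 17.5 CPM for WT, against 13.9, 13.6 and 11.8 for GFAP-IL6, and the lowest WT and the highest GFAP-IL6 libraries nearly touched. The difference amounted to -0.22 ± 0.13 (SE) in log2 units with an interval of -0.51 to 0.07 (adjusted p of 0.366 by edgeR). WT replicate 3, the library with the most choroid plexus transcripts, was again the highest, and without it the log2 fold change was -0.11. The part of choroid plexus in this value was not tested either.

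Mmp16 (ENSMUSG00000028226.13, chromosome 4, 17852893 to 18119145, plus strand; MT3-MMP) has the longest span of the 10 genes, 266253 bases with 11 merged exons. Its levels were 24.6, 19.0 and 26.4 CPM for WT, against 26.2, 26.7 and 25.5 for GFAP-IL6. The GFAP-IL6 libraries sat in a narrow band around the highest WT library, with GFAP-IL6 replicate 2 above it, and WT replicate 2 was the lowest library. In TPM every GFAP-IL6 library was above every WT library, though the groups nearly touched (highest WT 14.67, lowest GFAP-IL6 14.75). In log2 units the difference was 0.16 ± 0.12 (SE) with an interval of -0.10 to 0.43 (adjusted p of 0.471 by edgeR), and it was 0.03 without WT replicate 2 and 0.27 without WT replicate 3.

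Mmp24 (ENSMUSG00000027612.7, chromosome 2, 155775342 to 155818366, plus strand; MT5-MMP), an MT-MMP known from neurons, had the log2 fold change closest to 0. Its values of 66.4, 68.0 and 75.2 CPM for WT and 74.9, 70.1 and 69.8 CPM for GFAP-IL6 were interleaved. The estimated difference was 0.04 ± 0.08 (SE) on the log2 scale with an interval of -0.14 to 0.22 (adjusted p of 0.836 by edgeR), which leaves room for a level between 0.905 and 1.16 times that of WT. Of its exon bases, 13.6% are shared with BC029722 on the opposite strand, and how many of its counts this touches was not measured.

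Mmp17 (ENSMUSG00000029436.9, chromosome 5, 129584169 to 129611099, plus strand; MT4-MMP) encodes an enzyme tied to the membrane by a lipid (GPI) anchor in place of a transmembrane helix, and it was the most abundant MMP. It had 232, 195 and 202 CPM for WT, against 239, 234 and 218 for GFAP-IL6, with WT replicate 1 inside the GFAP-IL6 range and the other WT libraries below it. The fitted difference came to 0.13 ± 0.09 (SE) on the log2 scale with an interval of -0.06 to 0.32 (adjusted p of 0.401 by edgeR). It was 0.21 without WT replicate 1 and 0.08 without WT replicate 2.

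The balance of inhibitors to proteinases was described from the summed TPM of each class. The 3 TIMPs summed to 298, 278 and 281 TPM in WT and 278, 274 and 285 in GFAP-IL6, which overlapped. The 7 MMPs summed to 180.5, 155 and 170.1 TPM in WT and 201, 188 and 186 in GFAP-IL6, all above WT. The sum of the TIMPs, but not that of the MMPs, changed its overlap with the scale. In TMM-scaled CPM per kilobase the MMPs were 63.2, 57.6 and 61.2 in WT and 68.2, 64.8 and 64.0 in GFAP-IL6, again all above WT, but the TIMPs were 104, 103 and 101 in WT and 94.2, 94.7 and 98.0 in GFAP-IL6, all below WT. The ratio of TIMP to MMP transcripts, which is the same on both scales, was 1.70 ± 0.0830 for WT and 1.46 ± 0.0747 for GFAP-IL6 (SD over 3 libraries), with no overlap between groups. No test was run on this ratio, in which Mmp17 and Mmp24 carry most of the MMP side. As background, the groups did not overlap for 26.2% of all genes tested in TPM and for 26.5% in CPM. The sums and the ratio rest on the deposited gene lengths on both scales. The ratio of Mmp14 to Timp2, the partners in MMP2 activation, was 0.0334, 0.0487 and 0.0346 in WT and 0.0635, 0.0502 and 0.0784 in GFAP-IL6. It was higher in every GFAP-IL6 library than in any WT library, although the highest WT value and the lowest GFAP-IL6 value were close. The TPM of Mmp14 by itself did not overlap either (highest WT 8.35, lowest GFAP-IL6 8.54), whereas that of Timp2 did. The ratio is thus not a result separate from Mmp14, the gene with the largest difference. Transcript ratios give no measure of active enzyme.

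**Figure D5:**
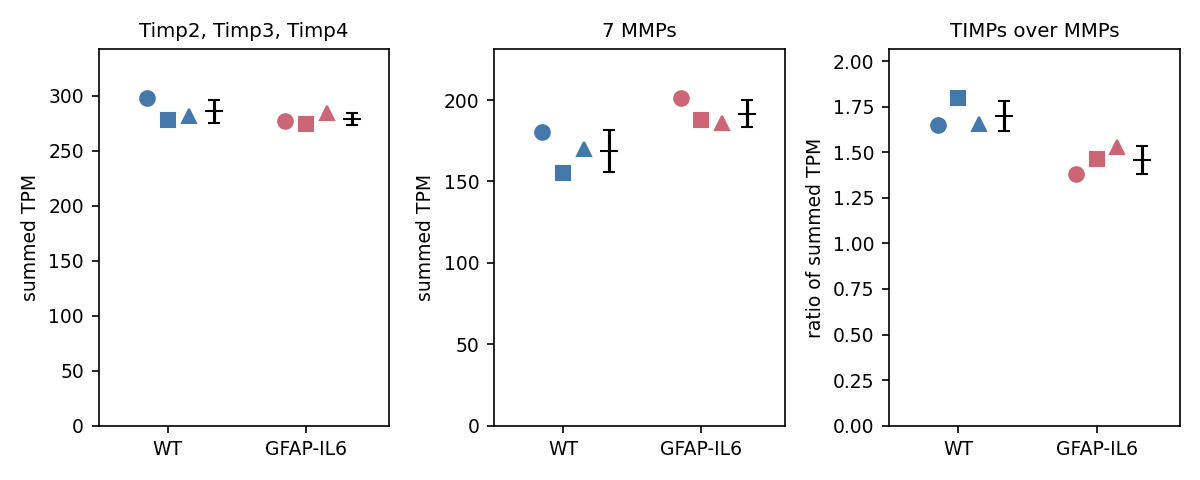
Summed TPM of Timp2, Timp3 and Timp4 (left), summed TPM of the 7 MMPs (middle) and their ratio (right), with a point for each library and bars for the mean ± SD of 3 libraries. The ratio lies between 1.65 and 1.80 in WT and between 1.38 and 1.53 in GFAP-IL6.

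The rest of the family was at low counts in this tissue. Of 16 other MMPs and Timp1, 4 passed the low-count filter (Mmp11, Mmp19, Mmp23 and Mmp28), 0 of these were called, and their median log2 fold change was 0.04. The smallest p among them was that of Mmp11, a secreted MMP, with 14, 27 and 19 counts for WT, against 7, 5 and 10 for GFAP-IL6 and a log2 fold change of -0.76 ± 0.36 (SE), at an edgeR adjusted p of 0.252. The next was Mmp23, with a log2 fold change of 0.54 ± 0.31 (SE), at an edgeR adjusted p of 0.339. No count was found in any library for 7 of the 17 genes, and 10, these 7 included, had at most 3 counts in each. Timp1, the TIMP best known for induction by IL6-type cytokines, was among the genes not tested, with 11, 10 and 10 counts for WT, against 9, 6 and 16 for GFAP-IL6. Scaled to CPM these were 0.958, 0.596 and 0.628 for WT, against 0.807, 0.792 and 1.79 for GFAP-IL6, where GFAP-IL6 replicate 3 was the highest library and the others were mixed.

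Proteins that activate or restrain MMPs were compared next. Of 15 such genes 13 were tested, 0 rose or fell at an adjusted p under 0.05, and the median log2 fold change was 0.17. An unadjusted p under 0.05 was found for 5 of the 13, against 20.5% of all genes tested. The smallest was that of Furin, the proprotein convertase that removes the propeptide of MT-MMPs, with 24.4 ± 4.01 CPM for WT and 31.9 ± 0.857 for GFAP-IL6 (SD over 3 libraries) and a log2 fold change of 0.40 ± 0.12 (SE), at an edgeR adjusted p of 0.107. Pcsk7, a related convertase, had 26.3 ± 1.30 and 32.0 ± 2.08 CPM (SD, n = 3 each) and a log2 fold change of 0.29 ± 0.09 (SE), at an edgeR adjusted p of 0.120. For both convertases, which were picked by their p, every GFAP-IL6 library was above every WT library. The groups did not overlap in CPM for 26.5% of all genes tested. Among the 5 genes, Serpini1 and Serpine2 went the other way. Their log2 fold changes were -0.25 ± 0.09 (SE) and -0.24 ± 0.10 (SE), at edgeR adjusted p of 0.142 and 0.189. Without WT replicate 1, 3 of the 13 genes were called, in a fit that called 1061 of all genes in place of 439.

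ADAM and ADAMTS proteinases, relatives of the MMPs of which several are TIMP3 targets, gave 1 called gene of 16 tested. The share over all genes tested was 2.86%. The median log2 fold change of the 16 was 0.19. The called gene was Adam8, a proteinase known from leukocytes and activated microglia. It rose from 4.70, 4.29 and 3.33 CPM in WT to 7.08, 8.06 and 7.48 in GFAP-IL6 without overlap. Its log2 fold change was 0.88 ± 0.19 (SE), at an edgeR adjusted p of 0.0215. The call was lost in 5 settings, those without WT replicate 3 or without GFAP-IL6 replicate 1, 2 or 3 and that with all libraries thinned to the smallest total.

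Substrates of the basement membrane and matrix held 2 called genes of 12 tested, both higher, with a median log2 fold change of 0.25. Fn1, which encodes fibronectin, rose from 43.3, 38.3 and 38.5 CPM in WT to 73.4, 77.6 and 93.3 in GFAP-IL6. In log2 units the difference was 1.03 ± 0.10 (SE), at an edgeR adjusted p of 8.7e-05. Lamb2, a laminin chain of vascular basement membranes, rose from 23.9 ± 1.82 to 36.0 ± 4.03 CPM (SD, n = 3 each), which was a log2 fold change of 0.59 ± 0.11 (SE), at an edgeR adjusted p of 0.00872. The endothelial and pericyte markers given above for Mmp14 moved in the same direction as these genes, and their part was not tested. Without GFAP-IL6 replicate 2, and likewise without replicate 3, 1 of the 12 substrates was called. The fold changes of these lists share the same 6 libraries with those of the 10 genes above, and no test compared one list with another.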

How the data were processed

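TruSeq mRNA libraries of frontal cortex from 3 WT and 3 GFAP-IL6 mice were used, grouped by their titles. Each library came from a separate mouse, so that p-values measure the spread between mice. The authors deposited raw read counts in 1 table covering 33000 genes with a gene length in bases. Reads were aligned with STAR (version 2.4 in the submitters' processing notes) and counted over GENCODE genes with featureCounts, and the counts carry no normalization. The build is mm10 per the study's methods, while the processing notes name hg19, a human build. The series' design text speaks of 4 replicates each and of 3’Pool-seq, whereas the labels give 3 TruSeq libraries per group. A strand setting is not given in the sources used here. Gene identifiers were matched to GENCODE M21 on GRCm38 without their version suffix, for 32593 genes, all on the same chromosome.

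Differential expression was tested across all genes with edgeR 4.0.16 in R 4.3.3 (quasi-likelihood F-test, TMM scaling, filterByExpr, Benjamini-Hochberg adjustment over 15341 genes, no covariate). Standard errors were derived from the F statistic. CPM values are TMM-scaled, and TPM was computed from counts and the deposited lengths. A floor of 3 counts amounts to between 0.178 and 0.397 CPM, depending on the library. This floor covers counting error only, since reads carried no molecular identifiers. DESeq2 1.42.0, limma-voom (limma 3.58.1), other scalings and filters, thinning to the smallest library, a replicate block and the omission of each library were alternatives. The edgeR fit was tested on simulated counts for this comparison, where it recovered 40% of genes changed by 1.5-fold, 84% of those changed by 2-fold and 100% of those changed by 4-fold among 15353 genes, with 7.95% of the calls false. Every simulated gene had the same dispersion, and only genes above a minimum mean count were changed. These rates therefore need not hold for genes with lower counts or a wider spread between mice. No pair of libraries agreed within sampling noise, with a chi-square per degree of freedom between 2.23 and 20.1.

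The 10 genes and all lists were chosen with earlier results of these data known. All 10 were named, and in each pathway list up to 4 called genes with the smallest adjusted p, or up to 2 with the smallest p where none was called. Il6 and Gfap were named as a check of the labels, and Serpini1 and Serpine2 to show both directions among the activators and regulators.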

Additional observations from a re-analysis of the deposited data

How the results depend on the processing

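The number of the 10 genes called was 0 with all libraries and 1, Mmp14, without the low-count filter (log2 fold change 0.67) and without WT replicate 2 (0.90), with a range of 0 to 1 when libraries were left out in turn. In those 6 fits the log2 fold change of Mmp14 ranged from 0.52 to 0.90, that of Mmp2 from -0.07 to 0.37 and that of Mmp9 from -0.60 to 0.06. Mmp2 turned below 0 without GFAP-IL6 replicate 3 (-0.065) and Mmp9 above 0 without WT replicate 1 (0.056). The other 8 genes kept their direction in all 14 alternatives, and 9 of the 10 stayed on the same side of the threshold in every alternative that tested them. Mmp9 did not pass the filter after thinning and has no value there. No gene of the 10 passed both thresholds of the study in any alternative.

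The number of genes called over all genes was 439, and moved to 1154 without the low-count filter, 750 with the replicate block and 187 to 1061 when 1 library was left out. Without the filter, 2 activators or regulators and 3 ADAM or ADAMTS genes were called in place of 0 and 1, and after thinning 0 ADAM or ADAMTS genes were called. When 1 library was left out, activators or regulators ranged from 0 to 3, ADAM or ADAMTS genes from 0 to 2 and substrates from 1 to 3. The causes were not tested.

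The titles give replicate numbers, and whether libraries of the same number share anything else cannot be told from the labels. The correlations of deviations from the group means between libraries of the same number were 0.0996, 0.0147 and 0.0211, and not every library correlated best with its own number. With the replicate block 0 of the 10 genes were called, while over all genes 750 were called in place of 439. Mmp2 and Mmp9 had under 50 counts in every library, and the parts of depth and of the spread between mice in their wide intervals were not tested. In TPM, a scale added after seeing the data along with CPM per kilobase for the sums, 2 of the 10 genes had groups that did not overlap in place of 1. The order of levels over all 6 libraries was the same in CPM per kilobase. That scale uses the same gene lengths as TPM, so it could hardly change the order. The exact permutation p of the total counts stayed at 0.1 with only the counts in tested genes. Those hold nearly all counts, so this alternative could hardly differ either.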
